A study of Equus caballus with 22 samples.

Results

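PTGS2 encodes the inducible cyclooxygenase, which turns arachidonic acid into the precursor of the prostaglandins, and PTGFR encodes the receptor for prostaglandin F2α. The 2 genes were followed in endometrial biopsies of warmblood mares in early pregnancy, the endometrium being the inner layer of the uterus. They were read by every non-control probe whose transcript identifier on the array was the horse RefSeq transcript of either gene, which gave 4 of 43603 probes: A_69_P000997, A_69_P000996 and A_69_P004631 for PTGS2 and A_69_P001431 for PTGFR. Each probe had 1 spot per array, and no spot of any of them was an outlier or saturated. All 4 probes were among the 38461 that passed the filter, a signal well above background on at least 5 of 22 arrays. The transcript identifiers named 675 genes in all, and 42208 probes stayed without a name.

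Biopsies were taken in 4 groups: pregnant mares at day 12 after the embryo had been recovered (6 mares) and the same mares at the matching stage without pregnancy (6 samples), then pregnant mares at day 8, likewise after embryo recovery (5 mares), and their non-pregnant samples (5). Every mare of a day thus gave a pregnant sample and her own control. The biopsies hold epithelium, stroma, vessels and immune cells together, so fewer cells of a type and less RNA per cell cannot be told apart. Each sample was hybridised to 1 Agilent 1-colour horse array, and levels are given as log2 intensity relative to that array's 75th percentile of spot intensity, so that 0 is the level at that percentile and 1 is a doubling.

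In the cycling mare, prostaglandin F2α from the endometrium ends the life of the corpus luteum, and release of this hormone is restrained while a conceptus is present. PTGS2 commits arachidonic acid to prostaglandin synthesis, and downstream synthases decide whether prostaglandin F2α, E2 or D2 is made. PTGFR is best known in the corpus luteum, where prostaglandin F2α acts to stop progesterone synthesis, and it is also made in the uterus.

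The arrays of the 2 days differed in more than the day. Day 12 arrays lay on 4 slides scanned on 3 days, day 8 arrays on 3 other slides scanned on 2 other days, and the image software version differed, so day and array batch cannot be told apart. Both arrays of each mare and day lay on the same slide, which leaves comparisons within mare free of differences between slides. The 75th percentile ranged from 577 to 1863 intensity units, and 74.2% to 92.9% of non-control spots were well above background. The number of arrays limits the precision of every value below. With 675 genes named, few cell type markers could be read: of the epithelial list 1 of 10 (ESRP1), of the stromal list 2 of 8 (DCN and LUM) and of the neutrophil list none. ESRP1, DCN and LUM were well above background on all 22 arrays.

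The brightest PTGS2 probe, A_69_P000997, was above the array's 75th percentile on every array. In pregnant mares at day 12 its level was 0.45 at the lowest, 0.94 at the median and 1.74 at the highest, against 0.08, 0.71 and 1.60 in the same mares when not pregnant. At day 8 it was 1.86, 0.22, 1.46, 1.59 and 1.60 in pregnant mares 1, 2, 4, 5 and 6, against 1.94, 1.06, 1.59, 1.74 and 2.24 in the same mares without pregnancy. The ranges of pregnant and non-pregnant samples overlapped on both days. Pregnant mare 2 at day 8 was far below the other 4 pregnant mares.

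This probe averaged 1.03 ± 0.53 in pregnant and 0.76 ± 0.58 in non-pregnant mares at day 12 (SD, n = 6 each), and 1.34 ± 0.64 in pregnant and 1.72 ± 0.44 in non-pregnant mares at day 8 (SD, n = 5 each). On the linear scale these are geometric means of 204%, 169%, 254% and 328% of the array's 75th percentile. From high to low the order of the group means was non-pregnant at day 8, pregnant at day 8, pregnant at day 12 and non-pregnant at day 12. Each step between neighbours in this order was smaller than the SD of either group. The means of the pregnant groups thus lay between those of the non-pregnant groups.

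**Figure D1:**
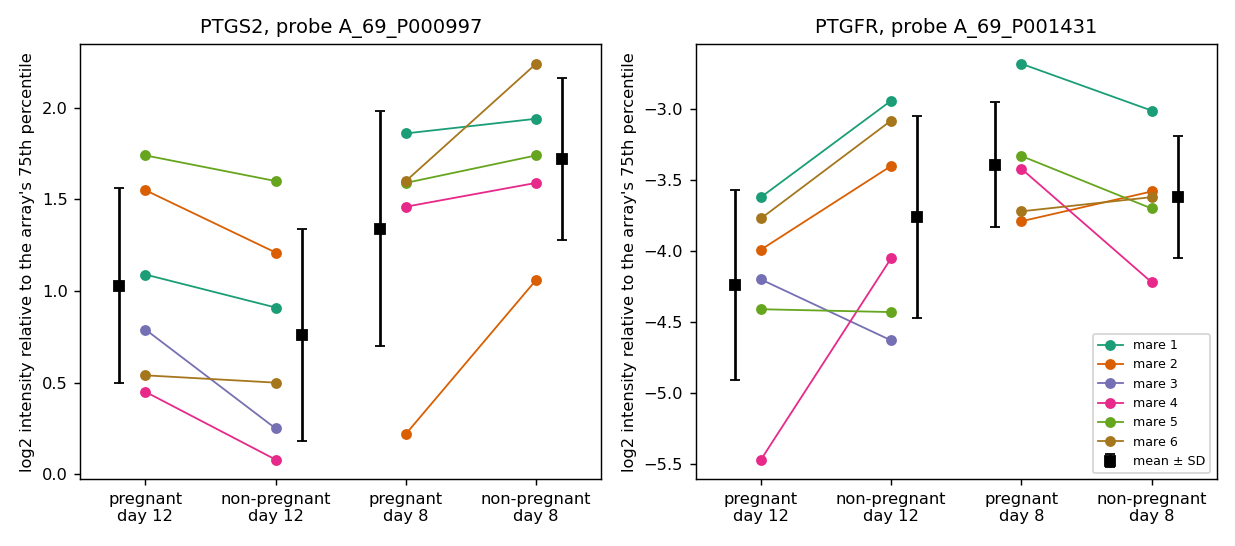
Levels of PTGS2 (left, brightest probe) and PTGFR (right) by group; the y axis is log2 intensity relative to the array's 75th percentile, coloured points joined by a line are the 2 samples of a mare, and black squares with bars are group means ± SD (n = 6 per group at day 12, n = 5 at day 8). For PTGS2 all 6 lines at day 12 are higher on the pregnant side and all 5 at day 8 are lower there, while for PTGFR the lines cross on both days.

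Within each mare, PTGS2 was higher in the pregnant sample at day 12. The log2 change of A_69_P000997, pregnant minus non-pregnant, was 0.18, 0.34, 0.54, 0.37, 0.14 and 0.04 in mares 1 to 6. All 6 changes were above 0, and 2.24% of 38103 probes measured on every array were likewise higher in 6 of 6 mares. The fitted change was 0.27 ± 0.11 (SE), or 1.20-fold with a 95% interval of 1.02 to 1.43. It did not pass limma's test across all probes (adjusted p = 0.354, and 0.181 to 1 over the alternatives), in which 0.265% of probes were called. All 3 PTGS2 probes had an unadjusted p under 0.05 in that test, as did 12.5% of all probes. The 3 probes read 1 transcript on the same arrays, so here and below they do not count as 3 separate results. A_69_P004631 was well above background on only 11 of 22 arrays. An exact sign-flip permutation test of A_69_P000997 alone, two-sided and not adjusted, gave p = 0.0312, the smallest that 6 mares allow. With normexp background correction the change was 0.11, above 0 but below the median of all probes, 0.34.

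At day 8 the changes of the same probe had the other sign. They were -0.09, -0.84, -0.14, -0.15 and -0.65 in mares 1, 2, 4, 5 and 6, all below 0, as in 4.27% of probes. The fitted change was -0.37 ± 0.12 (SE), or 0.773-fold (95% interval 0.642 to 0.931), with an adjusted p of 0.833 in limma's test. That test called 0% of probes at day 8, although 2243 probes (5.83%), among them 2 of the 3 PTGS2 probes, had an unadjusted p under 0.05. With 5 mares the exact two-sided permutation test cannot go below 0.0625, the value this probe had.

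The size of these changes was close to what a single spot can resolve. The scanner software put the error of each A_69_P000997 spot at 10% of its signal, which for a difference of 2 spots is 0.20 on the log2 scale. The change exceeded that error in 3 of 6 mares at day 12 (mares 2, 3 and 4) and in 2 of 5 at day 8 (mares 2 and 6). The direction in the other 6 mare-and-day pairs therefore rests on changes within the spot error.

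Of the 5 comparisons of the brightest PTGS2 probe, the difference between the pregnancy effects of the 2 days had the smallest unadjusted p (0.00252 in limma). At day 12 minus day 8 it was 0.64 ± 0.17 (SE; 95% interval 0.28 to 1.00), and it equals the day difference in pregnant mares minus that in non-pregnant mares. It did not pass limma's test (adjusted p = 0.258, and 0.153 to 1 over the alternatives), which called 0.0104% of probes, while all 3 PTGS2 probes had an unadjusted p under 0.05, as did 10.5% of all probes. An exact permutation of the 11 changes between the days, two-sided and not adjusted, gave p = 0.00216, the smallest it can give, since every day 12 change lay above every day 8 change. That held for 0.514% of all probes, and 0.0735% were higher in 6 of 6 mares at day 12 and lower in 5 of 5 at day 8. Of 38457 probes tested, 0.973% had a smaller p for this difference. With normexp background correction it was 0.45, where the median of all probes was 0.38.

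The second PTGS2 probe, A_69_P000996, gave the same picture at day 12 and a less even one at day 8. Its change was 0.24, 0.57, 1.02, 0.12, 0.33 and 0.56 in mares 1 to 6 at day 12, again above 0 in all. At day 8 it was 0.20, -1.11, -0.79, 0.07 and -0.69 in mares 1, 2, 4, 5 and 6. Mares 1 and 5, whose change by the brightest probe was within the spot error, were slightly above 0 here, and mare 4, at -0.14 by the brightest probe, was at -0.79. The fitted changes were 0.47 ± 0.17 at day 12 and -0.47 ± 0.19 at day 8, and their difference was 0.94 ± 0.25 (SE). Limma's adjusted p was 0.285, 0.833 and 0.286 for these 3 values, and the exact two-sided permutation p, not adjusted, was 0.0312, 0.25 and 0.00433. Its group means were -0.87 ± 0.59 in pregnant and -1.35 ± 0.59 in non-pregnant mares at day 12 (SD, n = 6 each), and -0.80 ± 0.73 in pregnant and -0.33 ± 0.31 in non-pregnant mares at day 8 (SD, n = 5 each), the same order of the 4 groups as by the brightest probe.

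The third probe, A_69_P004631, was dim. It was well above background in 4 of 6 pregnant and 3 of 6 non-pregnant samples at day 12, and in 1 of 5 pregnant and 3 of 5 non-pregnant samples at day 8, and its spot error reached 100%. Its change was 2.10, 0.69, 1.66, 0.06, 0.13 and 1.56 in mares 1 to 6 at day 12, and -0.06, -1.51, -1.75, 0.08 and -0.06 in mares 1, 2, 4, 5 and 6 at day 8. These changes exceeded the spot error in mares 1, 2, 3 and 6 at day 12, in mare 6 with neither spot well above background, and in mares 2 and 4 at day 8. The fitted changes were 1.03 ± 0.32 and -0.66 ± 0.35 (SE), neither of which passed limma's test (adjusted p = 0.215 and 0.848).

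Across the PTGS2 probes the bright pair lay closest to each other. Over the 11 within-mare changes, Pearson's r was 0.87 between the 2 bright probes, 0.63 between A_69_P000997 and the dim probe and 0.82 between A_69_P000996 and the dim probe. These values are a description, since the probes share their arrays and their target transcript.

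**Figure D2:**
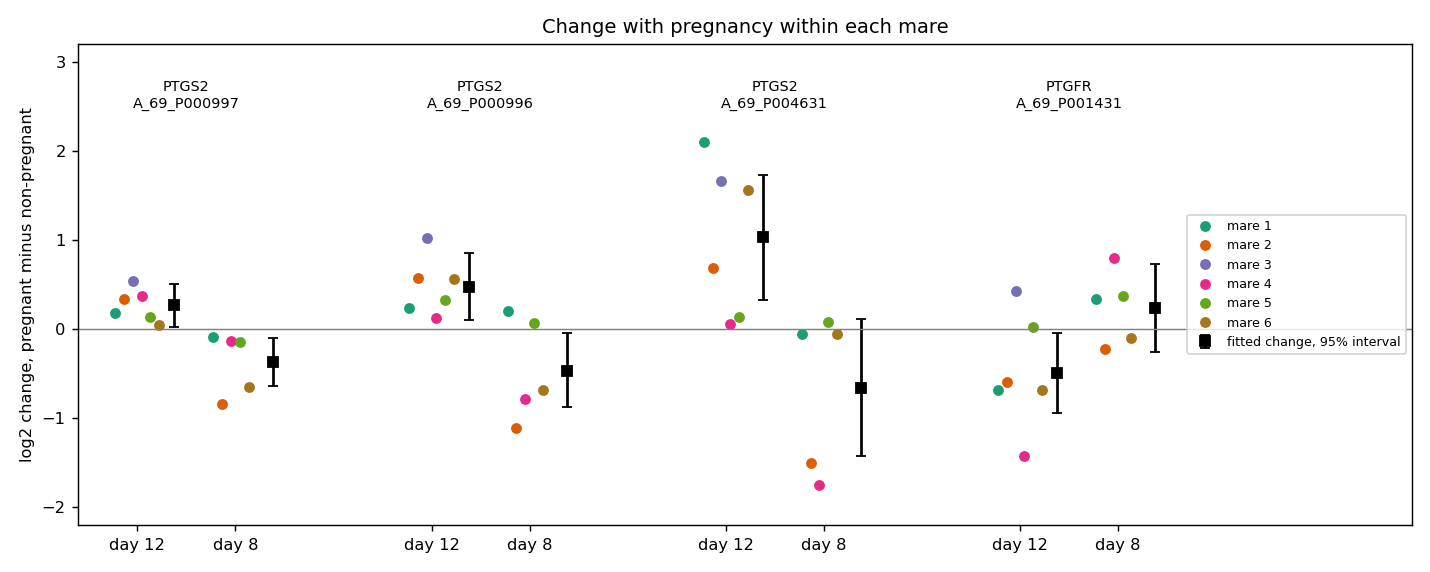
Log2 change, pregnant minus non-pregnant, of each mare (coloured points) by probe and day, with the fitted change and its 95% interval as black squares and bars; the horizontal line is 0. The 3 PTGS2 probes lie above 0 in all 6 mares at day 12 and mostly below it at day 8, and the PTGFR probe has points on both sides of 0 on both days.

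PTGFR gave a weak signal that was nonetheless well above background on all 22 arrays, at 14.3 to 152 intensity units. In pregnant mares at day 12 its level was -5.47 at the lowest, -4.09 at the median and -3.62 at the highest, against -4.63, -3.73 and -2.94 in the same mares without pregnancy. At day 8 it was -2.68, -3.79, -3.42, -3.33 and -3.72 in pregnant mares 1, 2, 4, 5 and 6, against -3.01, -3.58, -4.22, -3.70 and -3.62 without pregnancy. The groups overlapped, and pregnant mare 4 at day 12 was the lowest of all 22 samples.

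The group means of PTGFR had the pregnant samples at both ends. It averaged -4.24 ± 0.67 in pregnant and -3.76 ± 0.71 in non-pregnant mares at day 12 (SD, n = 6 each), and -3.39 ± 0.44 in pregnant and -3.62 ± 0.43 in non-pregnant mares at day 8 (SD, n = 5 each). From high to low the order was pregnant at day 8, non-pregnant at day 8, non-pregnant at day 12 and pregnant at day 12. Here too each step between neighbours was smaller than the SD of either group. The 2 groups without pregnancy lay side by side in the middle.

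Within mares, the change of PTGFR at day 12 was -0.68, -0.59, 0.43, -1.43, 0.02 and -0.69 in mares 1 to 6. It was below 0 in 4 of 6 mares, beyond the spot error in all 4, and above 0 beyond that error in mare 3. The fitted change was -0.49 ± 0.21 (SE), or 0.713-fold with a 95% interval of 0.521 to 0.976, and did not pass limma's test (adjusted p = 0.360). The exact two-sided permutation test gave p = 0.125. Without mare 4 the change was -0.30, and without mare 3 it was -0.67 (adjusted p = 0.611 and 0.0909 in limma), and with normexp background correction it turned to 0.28, where the median of all probes was 0.34.

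At day 8 the change of PTGFR was 0.34, -0.22, 0.80, 0.37 and -0.10 in mares 1, 2, 4, 5 and 6, so 3 of 5 were above 0. The fitted value was 0.24 ± 0.23 (SE), with a 95% interval of -0.26 to 0.73 on the log2 scale, and the adjusted p of limma's test was 0.920. Without mare 4 it was 0.10. The difference between the days was -0.73 ± 0.31 (SE; adjusted p = 0.447 in limma; exact permutation p = 0.0628, two-sided), and -0.40 without mare 4. It became 0.14 with normexp background correction, where the median of all probes was 0.38.

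No relation between the changes of the 2 genes at day 12 was detected in these 6 mares. Pearson's r was 0.255 (exact permutation p = 0.631, 0.865 after adjustment over 3 relations) and Spearman's rho 0.257 (exact permutation p = 0.658). Without the 2 mares farthest from the median PTGS2 change r was -0.773, and without mare 3 alone it was -0.536, so the sign rests on those mares. The levels of the genes at day 12 gave r = 0.293 in pregnant samples and r = 0.0847 in non-pregnant samples (exact permutation p = 0.629 and 0.865, both 0.865 after adjustment), with rho = 0.143 in both (exact permutation p = 0.803). Without the 2 farthest samples r was 0.666 and 0.602. The relation was not computed for the 5 mares of day 8.

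Between the days, PTGS2 was lower at day 12 than at day 8 in non-pregnant mares. The level of A_69_P000997 spanned 0.08 to 1.60 at day 12 and 1.06 to 2.24 at day 8, a difference of -0.96 ± 0.30 (SE), or 0.515-fold with a 95% interval of 0.328 to 0.810. Limma's adjusted p was 0.0728, where 7.09% of probes were called and 26.4% had an unadjusted p under 0.05, and the exact two-sided permutation test gave p = 0.0238, not adjusted. A_69_P000996 differed by -1.01 ± 0.28 with an adjusted p of 0.0502 in limma (0.00387 to 0.764 over the alternatives, of which it passed 6, among them leaving out mare 5, with a difference of -1.22), and the dim probe by -0.66 ± 0.64 (adjusted p = 0.544). In pregnant mares the difference of A_69_P000997 was -0.32 ± 0.32 (SE; adjusted p = 0.495 in limma, exact permutation p = 0.392), where 24.3% of probes were called, and -0.70 without mare 2 and -0.20 to -0.16 without mare 1, 4 or 6. The other 2 probes differed by -0.07 ± 0.36 and 1.03 ± 0.50 in pregnant mares (adjusted p = 0.899 and 0.148 in limma). The higher value of the dim probe passed with quantile normalization (1.12, adjusted p = 0.0481) and without the third scan day (1.58, adjusted p = 0.0292). Over the mean of the 3 probes the difference in pregnant mares was 0.21, so that no direction holds across probes.

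For PTGFR the larger day difference was that of pregnant mares. It was lower at day 12 than at day 8 in pregnant mares, with a difference of -0.86 ± 0.32 (SE), or 0.552-fold (95% interval 0.339 to 0.899), with an adjusted p of 0.0724 in limma and an exact two-sided permutation p of 0.0216, not adjusted, and 38.8% of all probes had an unadjusted p under 0.05 here, as PTGFR had (p = 0.0211 in limma). With quantile normalization the difference was -0.96 and passed limma's test (adjusted p = 0.0316), and with normexp background correction it was 0.00, where the median of all probes was 0.39. In non-pregnant mares the difference was -0.13 ± 0.34 (SE; adjusted p = 0.839 in limma), with a 95% interval of -0.87 to 0.61, and without mare 3 it was 0.04. The 2 day comparisons of a gene were not independent of its pregnancy comparisons, since they use the same samples.

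The level of PTGS2 at day 12 also differed between scan days. The 4 arrays of the second scan day, those of mares 2 and 5, read 1.21 to 1.74. The other 8 arrays of day 12 read 0.08 to 1.09, with no overlap. The share of all probes that split in this way was not computed, so the split is not given as particular to PTGS2. Whether it lies in the mares or the scans cannot be told apart, as each mare was scanned on 1 day. The within-mare change averaged 0.36, 0.24 and 0.20 on the 3 scan days of day 12 and -0.46 and -0.31 on those of day 8, so its sign was the same in each. For PTGFR it averaged -0.12, -0.28 and -1.06 on the scan days of day 12 and 0.06 and 0.36 on those of day 8. Without the arrays of the second scan day, an alternative chosen after seeing the data, the day difference of PTGS2 in non-pregnant mares was -1.28 (adjusted p = 0.0137 in limma). Without each of the other 4 scan days it was -1.10 to -0.72 and did not pass, and over the alternatives it ranged from -1.28 to -0.72 (adjusted p = 0.0137 to 0.804).

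**Figure D3:**
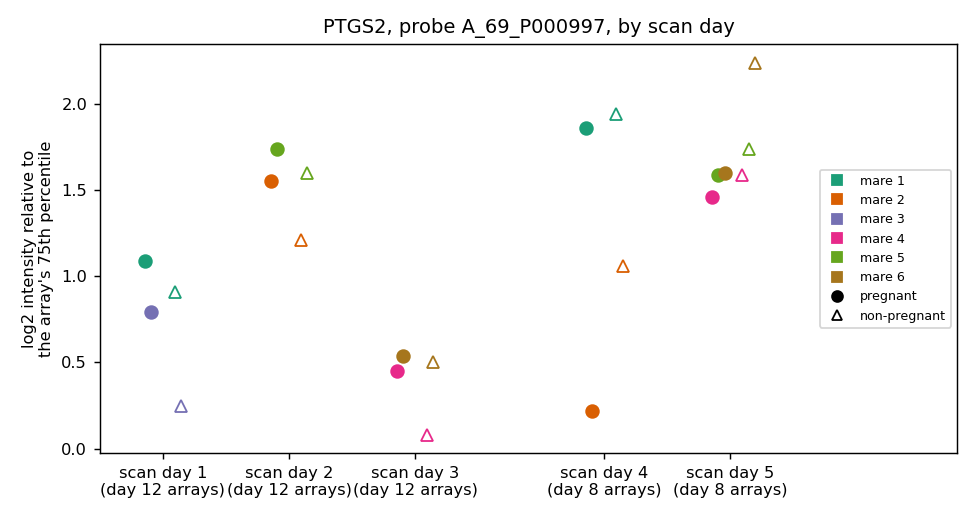
Level of PTGS2 by the brightest probe (log2 intensity relative to the array's 75th percentile) on each scan day, with filled circles for pregnant and open triangles for non-pregnant samples, coloured by mare. On scan day 2 all 4 samples read 1.21 to 1.74, above the other 8 samples of day 12, and within each scan day every mare's pregnant sample is above her control at day 12 and below it at day 8.

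The other genes of the prostaglandin pathway were read where the array named them, which was so for 26 of 75 listed genes. The others, among them the oxytocin receptor gene OXTR, were not analysed here. At day 12, 1 of the 26 passed limma's test and was higher in pregnant mares. So were 0.985% of the 609 named genes that passed the filter, and 0.211% of all probes. None of the 26 passed as lower, and 3 had an unadjusted p under 0.05 (13.6% of these named genes and 12.5% of all probes had). The median change was 0.06, against -0.02 over all probes. At day 8 none of the 26 passed limma's test, 2 had an unadjusted p under 0.05 (5.83% of all probes had), and the median was 0.00, against -0.01 over all probes. For the difference between the days none passed, 5 had an unadjusted p under 0.05 (10.5% of all probes had), and the median was 0.08, against 0.00.

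Upstream of PTGS2, PLA2G4A encodes the cytosolic phospholipase that frees arachidonic acid from membranes. Its change was 0.39 ± 0.21 (SE) at day 12 and -0.23 ± 0.23 at day 8. The annexins ANXA1 and ANXA2, known as inhibitors of phospholipase activity, were at 0.08 ± 0.09 and 0.22 ± 0.11 at day 12 and at 0.01 ± 0.10 and 0.11 ± 0.12 at day 8. None of these values passed limma's test. Among genes that induce or answer the same signals as PTGS2, TGFB1, a growth factor, was at 0.31 ± 0.13 at day 12 and -0.22 ± 0.14 at day 8. TNF, an inflammatory cytokine, was at -0.09 ± 0.15 and -0.42 ± 0.16, below 0 in 5 of 5 mares at day 8, as were 4.27% of probes. TLR4, the receptor for bacterial lipopolysaccharide, was at 0.16 ± 0.14 and -0.31 ± 0.16, and its second probe at 0.23 and -0.02. Of the 10 measured inducers none passed at either day. At day 12, 7 of them were above 0, and those below it were TNF, CXCL8 (-0.29) and PTGER2 (-0.07). At day 8, 7 were below 0, and those above it were IL1R1 (0.15), IL6 (0.35) and PTGER2 (0.06).

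Of the synthases below PTGS2, PTGES makes prostaglandin E2 and had the opposite signs to PTGS2. It was at -0.15 ± 0.11 (SE) at day 12, lower in 4 of 6 mares, and at 0.28 ± 0.12 at day 8, higher in 5 of 5 mares (3.99% of probes were), and the difference between the days was -0.42 ± 0.16. Limma's adjusted p was 0.627, 0.833 and 0.409 for these 3 values. PTGES3, a second prostaglandin E synthase that also serves as a co-chaperone, was at 0.01 ± 0.10 and 0.00 ± 0.11. PTGDS, which makes prostaglandin D2, was at -0.27 ± 0.08 at day 12 and 0.02 ± 0.09 at day 8. Its brightest probe was lower in 6 of 6 mares at day 12, as were 3.71% of probes, and did not pass (adjusted p = 0.203 in limma), whereas its other probe, at -0.39, did. AKR1C1, an aldo-keto reductase of steroid and prostaglandin metabolism, was at 0.04 ± 0.22 and 0.23 ± 0.24, and its probes disagreed at day 12, where another read -1.61.

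Transport and breakdown held the gene that passed. ABCC1, an export pump of the ABC family whose known substrates include eicosanoids, was higher in pregnant mares at day 12 by 0.68 ± 0.12 (SE; adjusted p = 0.0474 in limma). It was higher in 6 of 6 mares, as were 2.24% of probes. Its second probe was at 0.43 and did not pass. The call was lost under 14 of 23 alternatives, over which the change ranged from 0.52 to 0.80. It was lost without mare 1, 2, 4 or 6, each left out alone (0.67, 0.69, 0.58 and 0.66), and without the replicate block. At day 8 ABCC1 was at -0.12 ± 0.13, and the difference between the days, 0.80 ± 0.18, did not pass (adjusted p = 0.201). HPGD, which inactivates prostaglandins, was at -0.38 ± 0.43 and 0.44 ± 0.47. Among the receptors only PTGER2, which answers prostaglandin E2, could be read beside PTGFR, and it was at -0.07 ± 0.14 at day 12 and 0.06 ± 0.15 at day 8.

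Between the days, 6 of 26 pathway genes passed limma's test in pregnant mares and 2 of 26 in non-pregnant mares, where 28.2% and 8.87% of the 609 named genes did. In pregnant mares 5 of 26 were lower and 1 higher at day 12, against 20% and 8.21% of the named genes, each read by its brightest probe, and 13.1% and 11.1% of all probes. Their median was -0.12, against -0.15 over the named genes and -0.03 over all probes. The lower ones were HSD3B2 (-1.52), a steroid dehydrogenase of progesterone synthesis, PLA2G2A (-1.39), a secreted phospholipase, TLR4 (-1.39), ESR1 (-0.94), the oestrogen receptor, and PTGDS (-0.56). Only 1 of the 2 TLR4 probes passed, the other reading 0.35, and only 1 of the 6 ESR1 probes, which spanned -0.94 to 0.00. ABCC1 was the higher one, by 1.59. Of these calls that of PTGDS was lost under 15 of 22 alternatives and that of PLA2G2A under 10, and the value of HSD3B2 became -0.03 with normexp background correction. In non-pregnant mares 2 of 26 were lower, against 7.39% of named genes and 4.62% of all probes: TLR4 (-1.85) and IL1R2 (-0.87), a decoy receptor for interleukin-1 that was well above background in 1 of 6 samples at day 12 and 3 of 5 at day 8. The second TLR4 probe read 0.10 and did not pass. PLA2G2A was also lower in non-pregnant mares, where 3 of its 5 probes passed and the 5 spanned -1.87 to -1.36. Its brightest probe, the one counted here, read -1.36 and did not pass (adjusted p = 0.117 in limma). The call of IL1R2 was lost under 18 of 19 alternatives and that of TLR4 under 10 of 22. By the brightest probe none of 26 was higher there, against 1.48% of named genes and 2.47% of all probes. The median was -0.20, against -0.13 over the named genes and -0.01 over all probes. Of VEGFA 1 of 10 probes passed there (span 0.25 to 0.74), and of ANXA2 1 of 3 (span -0.08 to 0.90). In pregnant mares 1 probe each of ANXA2 (span 0.03 to 1.02), IL1RN (0.27 to 1.15) and PLA2G4A (0.40 to 0.69) passed as higher. The brightest probe of each of these genes did not pass. PTGS2 and PTGFR were not among the genes that passed in either state.

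**Figure D4:**
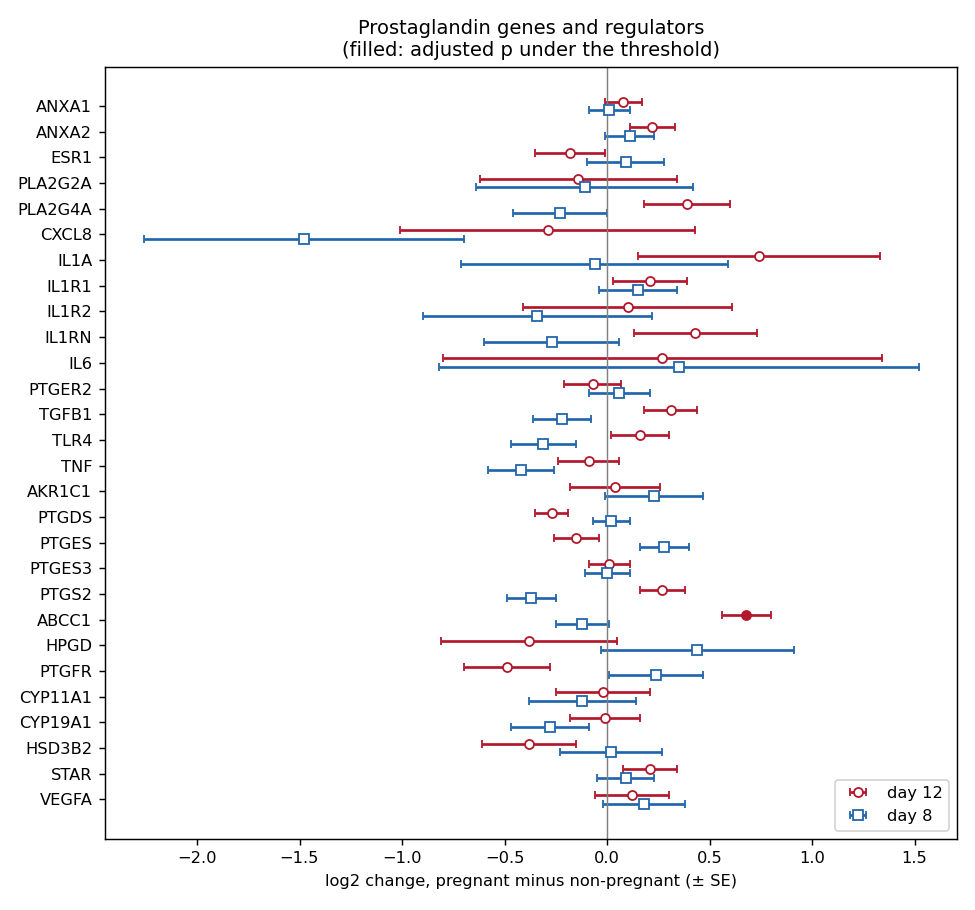
Fitted log2 change, pregnant minus non-pregnant (x axis, with SE as bars), of PTGS2, PTGFR and the 26 other measured pathway genes (y axis, each by its brightest probe) at day 12 (red circles) and day 8 (blue squares); a filled marker passed limma's test over all probes. ABCC1 at day 12 is the single filled marker, and PTGS2 lies at 0.27 and -0.37, PTGES at -0.15 and 0.28.

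Several markers of other cell types had the same sign as PTGS2 at day 12. TAGLN, the 1 of 7 smooth muscle markers that could be read, was higher in 6 of 6 pregnant samples (2.24% of probes were), by 0.90 ± 0.23 (SE). Its level relative to the array's 75th percentile was 0.371 to 0.787 in pregnant and 0.139 to 0.473 in non-pregnant samples at day 12. CD14, a macrophage marker, was at 0.51 ± 0.16 and PECAM1, the endothelial marker, at 0.44 ± 0.16, but none of the 3 passed limma's test (adjusted p = 0.139, 0.214 and 0.305). The other 3 macrophage markers were between 0.00 and 0.17, and the summed level of the 4 of 7 that could be read was 9.42 to 12.3 in pregnant and 6.94 to 12.0 in non-pregnant samples at day 12. The 1 of 6 endothelial markers, PECAM1, was at 1.42 to 2.85 in pregnant and 0.914 to 2.10 in non-pregnant samples, and the 2 of 8 stromal markers had median sums of 20.2 in pregnant and 17.3 in non-pregnant samples, with overlapping ranges. The 2 of 10 lymphocyte markers summed to 1.80 to 18.5 in pregnant and 3.62 to 17.5 in non-pregnant samples. ITGA2B, the 1 of 6 platelet and erythrocyte markers, was lower in 6 of 6 pregnant samples, as were 3.71% of probes (-0.29 ± 0.08, adjusted p = 0.158 in limma). At day 8 TAGLN, CD14 and PECAM1 were at 0.28 ± 0.25, -0.03 ± 0.17 and 0.11 ± 0.18. TAGLN was higher in 5 of 5 pregnant samples at day 8 (3.99% of probes were), where the brightest PTGS2 probe was lower in 5 of 5. The epithelial marker ESRP1 was at 0.00 ± 0.08 at day 12 and 0.09 ± 0.09 at day 8. PAG, the 1 of 4 trophoblast markers, was at 0.0151 to 0.0414 of the 75th percentile in pregnant and 0.0171 to 0.0429 in non-pregnant samples at day 12. Between the days, 5 of the measured markers passed limma's test in pregnant mares, where 28.2% of named genes and 24.3% of all probes did. They were 1 of 4 macrophage markers, 1 of 2 stromal markers and the single endothelial, smooth muscle and platelet markers. The 2 lymphocyte markers, ESRP1 and PAG did not pass by their brightest probes. CD14 (1.01), PECAM1 (0.92) and TAGLN (0.84) were higher at day 12, and ITGA2B (-0.84) and LUM (-0.63) lower. Only 1 of the 6 LUM probes passed, and they spanned -0.63 to -0.22. In non-pregnant mares no marker passed, where 8.87% of named genes and 7.09% of all probes did. The same 5 genes read 0.47, 0.59, 0.22, -0.62 and -0.67 there. The part of these markers in the values of PTGS2 and PTGFR was not tested.

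Among 599 other named genes, those whose level followed PTGS2 most closely over the 22 arrays, after each group's mean was taken off, were BPIFA2 (r = 0.89), LSM8 (r = 0.89) and LOC100069804 (r = 0.87). The lowest values were those of PFKM (r = -0.83), PIAS3 (r = -0.82) and ALB (r = -0.75). Over the 11 changes within mare the highest were TGFB1 (r = 0.88), ANGPTL2 (r = 0.84) and CCNT1 (r = 0.82). These changes pool both days with the mean of each day left in, so r also holds the shift between days. TGFB1, at 0.31 and -0.22, shifted between the days in the same direction as PTGS2. For PTGFR the highest over the 22 arrays were GJB1 (r = 0.75), SOD1 (r = 0.69) and EDNRB (r = 0.68) and the lowest LOC100066639 (r = -0.72), IL1R1 (r = -0.72) and BCHE (r = -0.69). Over its changes within mare, again with the mean of each day left in, they were SOD1 (r = 0.86), TAB2 (r = 0.84) and UBE2S (r = 0.83). Of the genes named here, TGFB1 and IL1R1, a receptor of interleukin-1, were on the pathway lists. The correlations are descriptions over arrays that share slides, scan days and mares.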

How the data were processed

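Endometrial RNA of 22 samples had been labelled with Cy3 and hybridised to Agilent 1-colour arrays, per the labels' protocols. The deposited scanner files hold spot intensity on a linear scale, made with Agilent Feature Extraction 10.5.1.1 for day 12 and 10.7.3.1 for day 8, per the file headers. The authors' deposited value table, in log2, served as an alternative, and its normalization is not given in the sources used here.

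Processed intensity was taken to log2 and centred on each array's 75th percentile. Outlier spots were left out and spots of a probe averaged. Limma 3.58.1 (R 4.3.3) fitted all 22 arrays with mare within day as a block and 1 pregnancy effect per day, and the 11 pregnant or 11 non-pregnant arrays for day. P-values were two-sided and Benjamini-Hochberg adjusted over all probes at 0.05. The scripts were tested on simulated data. A gene with several probes is given by its brightest. The text names all probes of PTGS2 and PTGFR, pathway genes and markers from fixed lists, and the genes most alike in level. Members and lists were chosen with earlier results of these data known. The pairing within day comes from the labels' mare numbers. The 2 samples of a mare deviated together (r = 0.307 to 0.744 at day 12 and 0.288 to 0.730 at day 8). They also shared a slide and a scan day, so r cannot show by itself that they came from 1 mare. The labels do not say that a number means the same mare on both days. Normexp used median signals, with an offset of 50. P-values for pregnancy rest on how the changes within mares vary, and those for day on how samples of the same state and day vary.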

Additional observations from a re-analysis of the deposited data

Results flagged for a closer look

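The level of PTGS2 by A_69_P000997 in pregnant mare 2 at day 8 was 0.22, while the other 4 pregnant mares of that day read 1.46 to 1.86. Its gap to the nearest of them, as a share of the group's range, was 0.754, above Dixon's 95% value of 0.71 for 5 samples. Among 24 sets of values examined this was the single one past that value, and chance passes about 1 in 20. Without mare 2 the change at day 8 was -0.25.

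The pregnancy effect on PTGS2 by the same probe differed between the days by 0.64, with 6 of 6 mares higher at day 12 and 5 of 5 lower at day 8 (0.0735% of probes). The difference itself did not pass limma's test (adjusted p = 0.258). Its exact permutation p, not adjusted, was 0.00216, the smallest possible. The pattern of signs alone fixes that value, so it adds nothing to the pattern. By A_69_P000996 3 of 5 mares were lower at day 8, and by A_69_P004631 4 of 5. With normexp background correction the difference of A_69_P000997 was 0.45, where the median of all probes was 0.38.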

How the results depend on the processing

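No probe of PTGS2 or PTGFR passed limma's test within mare under any alternative, and the changes of PTGS2 kept their sign at both days under all of them. Of 229 alternative limma values for the main results, 219 kept sign and side of the threshold, 4 came to pass it and 6 changed sign. For the other PTGS2 probes 203 of 219 did, 9 came to pass and 7 changed sign. With normexp the median of all probes at day 12 was 0.34, against -0.02 in the main setting. There the change of A_69_P000997 was 0.11, or -0.23 relative to the normexp median, and that of PTGFR 0.28, or -0.06. The PTGFR difference became 0.14 and r between the genes -0.759. The day difference of PTGFR without pregnancy became 0.09 without the fourth scan day, and that of PTGS2 in pregnant mares 0.21 over the mean of its probes.

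PTGS2 without pregnancy passed limma's test between days with mare as a random block (-0.96, adjusted p = 0.0274), with a trended robust fit (-0.96, 0.0471) and without the second scan day (-1.28). It did not pass under the others (adjusted p up to 0.804), among them slide as a random block (0.153) and mare number as a block (0.201). PTGFR in pregnant mares passed with quantile normalization (-0.96) and under no other (adjusted p up to 0.999). The exact test of a single value, which is not adjusted, gave p under 0.05 for these 2 (-0.96 and -0.86) and for PTGS2 at day 12 (0.27) and between effects (0.64), none of which passed limma's test in the main setting. A_69_P000996 in pregnant mares turned to 0.17 with normexp, 0.04 with the percentile over detected probes, 0.06 in the authors' table, and 0.19 and 0.16 without scan days 3 and 5. The causes were not tested.

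Leaving out 1 mare gave 0.21 to 0.31 for PTGS2 at day 12 and -0.44 to -0.25 at day 8. PTGFR gave -0.67 to -0.30 at day 12, 0.10 to 0.35 at day 8 and -0.91 to -0.40 for the difference, and PTGS2 between days in pregnant mares -0.70 to -0.16. Without pregnancy PTGFR between days gave -0.27 to 0.04, A_69_P000996 in pregnant mares -0.39 to 0.17, and r between the genes -0.536 to 0.661.

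Without the replicate block the changes at day 12 were 0.27 ± 0.31 for PTGS2 and -0.49 ± 0.33 for PTGFR (SE, adjusted p = 1 in limma). With mare number as a replicate block across days PTGFR without pregnancy was 0.04. Numbers shared across days correlated at -0.301 to 0.324, which does not settle whether they are the same mares. They were not used as a pairing in the main fits, since the labels do not say so. The probes called at day 12 numbered 102, and 9 to 977 over the alternatives. The difference called 4 (0 to 156), days without pregnancy 2727 (3 to 5246) and in pregnancy 9332 (235 to 10167). Dim signal limits A_69_P004631.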
